A study of Sus scrofa with 4 samples.

Results

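CCL19, CCL21, CCR7, CXCL12 and CXCR4 are the genes of a small set of chemokines and receptors that place lymphocytes and dendritic cells within lymphoid organs. They were chosen by name: every probe other than a control whose transcript identifier was a pig RefSeq transcript of one of them was read on every array. All 5 genes were found, each with 1 probe, out of 3020 genes that could be named on the array.

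The arrays held spleen RNA of miniature pigs, labelled with Cy3 in a single colour. A group of 3 arrays came from wildtype pigs (WT 1, WT 2 and WT 3), and 1 array was labelled with the genotype IL2RG +/- and is called KO. IL2RG encodes the common gamma chain of the interleukin 2 receptor family. All animals were Minnesota miniature swine, and the labels give neither age nor sex for the arrayed animals. The methods describe the edited pigs as clones made by nuclear transfer from cells treated with TALENs. More than one such pig was analysed according to those methods, and the label does not say which of them, or whether a pool, the KO array stands for. The labels do not say whether the WT pigs were clones, nor whether the WT samples came from separate animals. The p-values therefore rest on the spread between the WT arrays, to which the 1 KO array adds nothing, and not on a known spread between animals.

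CCL19 and CCL21 are both ligands of CCR7. They are known to be made mainly by reticular stromal cells of the T cell zones, and CCL21 also by lymphatic endothelium, whereas CCR7 is carried by naive T cells, B cells and maturing dendritic cells. CXCL12 is made by stromal cells and acts through CXCR4, which is carried by most leukocytes and holds cells in niches of bone marrow and spleen. In the pig assembly Sscrofa11.1 CCL21 and CCL19 are adjacent genes.

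Expression is given as the log2 of the signal after the 75th percentile of each array was set to 0. WT values stand in the order WT 1, WT 2 and WT 3. A difference is KO minus the mean of WT, and 1 on this scale is a 2-fold difference. Because probes differ in how brightly they bind, a level is compared between arrays for a gene and not between genes. All 20 member spots, 1 for each gene on each array, were well above background, 0 were marked as outliers and 0 were saturated. Their processed signals ran from 372 to 12084, and the scanner software attached an error of about 10% of the signal to each.

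Several facts of the arrays bear on every comparison. WT 1 and KO lay on slide 1, and WT 2 and WT 3 lay on slide 2, scanned at another time. On both probes of IL2RG the KO array was the lowest of the 4, with differences of -0.77 and -2.12 (limma, adjusted p = 0.578 and 0.402). As a check of the tissue, C1QB, a gene of splenic macrophages, lay between 8.03 and 8.96 on the 4 arrays. The liver genes ALB and TTR stood out on WT 2, at 2.60 and 2.37, against -6.42 to -1.64 and -7.78 to -3.77 on the others. For both genes KO was also above WT 1, by 4.79 and 4.01. APOA1, also a liver gene, did not single out WT 2, with 2.80, 3.44 and 3.62 in WT and 1.45 on KO. The summed level of erythroid genes was 1.61 on WT 1 and 2.60 on KO, against values up to 38.7 on WT 2 and WT 3, so these genes followed the slide. For these reasons each member is also given within slide 1 and without each WT array.

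Among the 5 genes, the ligands of CCR7 differed in opposite directions in the KO spleen. CCL21 was 4.54-fold lower in KO than in WT, whereas CCL19 was 2.04-fold higher, or 1.23-fold within slide 1, and CCR7 itself lay within the WT range. CXCL12 and CXCR4 were both slightly lower in KO, by 1.41-fold and 1.39-fold. None of these differences passed limma after adjustment over all probes, a count of 0 of 5 genes, where 0% of the 33464 probes tested passed. CCL21, 1 of 5 genes, was at least 2-fold lower in KO with a limma p below 0.05 before adjustment, where 5.01% of all probes were.

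**Figure D1:**
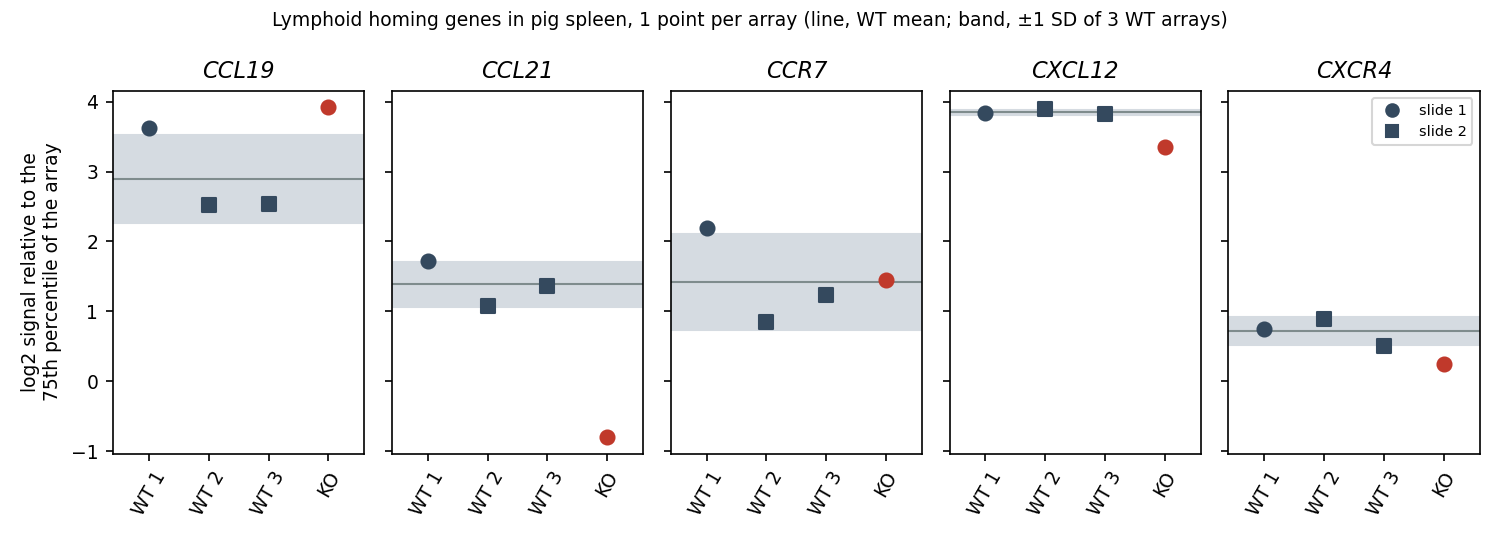
Log2 signal with the 75th percentile of each array at 0 (vertical axis) for each gene on WT 1, WT 2, WT 3 and KO; circles are slide 1, squares are slide 2, KO is red, the line is the WT mean and the band is 1 SD on either side (n = 3). KO lies below every WT array for CCL21, CXCL12 and CXCR4, above every WT array for CCL19, and among them for CCR7.

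CCL19 read 3.62, 2.53 and 2.54 in WT and 3.92 in KO. The KO value was the highest of the 4, but WT 1 (3.62) stood close beneath it, and WT 2 and WT 3 formed a lower pair. The WT mean was 2.90 ± 0.63 (SD, n = 3) and the difference was 1.03 (SE 0.58), with a 95% interval from -0.60 to 2.65 and an adjusted limma p of 0.562. As processed signal the spots read 7888, 4705 and 4754 in WT and 9792 in KO.

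The CCL19 values were split by slide, which among WT arrays cannot be told apart from a difference of the WT 1 sample. WT 1 exceeded the mean of WT 2 and WT 3 by 1.09, whereas KO exceeded WT 1 on the same slide by 0.30, or 1.23-fold. With the slide as a block in the fit the difference was accordingly 0.30. Without WT 1 it was 1.39, and without WT 2 or WT 3 it was 0.84 or 0.85. Thus the order of the arrays was KO, WT 1, WT 3 and WT 2, and the step between KO and WT 1 was smaller than the WT SD.

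CCL21 read 1.72, 1.08 and 1.36 in WT and -0.80 in KO. The WT arrays lay close together and the KO array stood well below all of them. The WT mean was 1.39 ± 0.32 (SD, n = 3), and the difference was -2.18 (SE 0.37), with a 95% interval from -3.22 to -1.14. The unadjusted limma p was 0.0045, and the adjusted p over all probes was 0.342. In processed signal, 2111, 1722 and 2101 in WT stood against 372 in KO.

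The distance of KO from the nearest WT array was -1.87, against a range of 0.64 among the WT arrays themselves. Within slide 1 the difference from WT 1 was -2.52, a 5.73-fold lower signal in KO, so the difference was as large within the slide as across slides. Leaving out any WT array gave differences between -2.34 and -2.02. Of all probes tested, 2.18% had a more negative difference than CCL21.

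Counted over the set, KO lay below all WT arrays for 3 of 5 genes (CCL21, CXCL12 and CXCR4), where 34.9% of all probes did. It lay above all WT arrays for 1 of 5 genes (CCL19), where 27.0% of all probes did. With a distance of at least 2-fold from the WT mean added, 1 gene was lower (CCL21), where 11.6% of all probes were, and 1 gene was higher (CCL19), where 7.35% were. The share depended on brightness. When probes were split by brightness into 4 equal bins, 6.45% were lower by this rule in the bin that holds CCL21, and 11.2% were higher in the brightest bin, which holds CCL19. CCL19 met the 2-fold rule narrowly, at 1.03, and also at 1.27 under the median shift and 1.39 without WT 1. It fell short at 0.83 under quantile normalisation, 0.70 under normexp with quantile normalisation and 0.83 in the table deposited by the authors. It was also short, at 0.92, when only probes above background on each array set the percentile. Within slide 1 (0.30) and without WT 2 (0.84) or WT 3 (0.85) it was short as well. With so few genes these counts are a description of the set only.

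CCR7, the receptor of both ligands, read 2.19, 0.85 and 1.23 in WT and 1.46 in KO. KO lay between WT 1 and WT 3, and the WT arrays spread over a range of 1.34. The WT mean was 1.42 ± 0.69 (SD, n = 3), and the difference was 0.03 with a 95% interval from -1.72 to 1.78 (limma, adjusted p = 0.987). The interval covers both a 2-fold decrease and a 2-fold increase, so the values do not show that CCR7 was equal in both genotypes.

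The sign of the CCR7 difference was not stable. On slide 1 KO was below WT 1 by a difference of -0.73, or 1.66-fold, and without WT 1 the difference was 0.42. It was -0.07 under quantile normalisation and 0.28 under a shift to the median of each array. As for CCL19, WT 1 exceeded the mean of WT 2 and WT 3, here by 1.15.

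CXCL12 read 3.84, 3.89 and 3.82 in WT and 3.36 in KO. The WT arrays were nearly level across both slides, and KO was the lowest. The WT mean was 3.85 ± 0.03 (SD, n = 3), a spread smaller than that of all but 1.33% of the probes tested. The difference was -0.49 (SE 0.26), with a 95% interval from -1.22 to 0.24 and an adjusted limma p of 0.546. The standard error exceeds what the WT spread of this probe alone would give, because limma draws the variance of each probe toward that of all probes.

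Within slide 1 the CXCL12 difference was -0.48, and without each WT array it lay between -0.50 and -0.47. The distance of KO from the nearest WT array was -0.46, while the WT arrays covered a range of 0.07. The size depended on the scaling, at -0.24 under the median shift and -0.79 under normexp with quantile normalisation, and KO was below all WT arrays under each of 6 scalings. In processed signal the values were 9140, 12084 and 11588 in WT and 6618 in KO.

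CXCR4, the receptor of CXCL12, read 0.75, 0.90 and 0.51 in WT and 0.25 in KO. KO was again the lowest, but its distance from WT 3 was -0.26, less than the WT range of 0.39. The WT mean was 0.72 ± 0.20 (SD, n = 3), and the difference was -0.47 (SE 0.31), with a 95% interval from -1.33 to 0.39 and an adjusted limma p of 0.591. Processed signals were 1078, 1518 and 1165 in WT and 766 in KO.

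On slide 1 the CXCR4 difference was -0.50, and it lay between -0.58 and -0.38 without each WT array. Under the median shift it was -0.22 and KO lay among the WT arrays, whereas under the other 5 scalings KO was the lowest. For CXCL12 and CXCR4 alike, 28.9% and 29.8% of all probes had a more negative difference, so their position was common on these arrays.

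**Figure D2:**
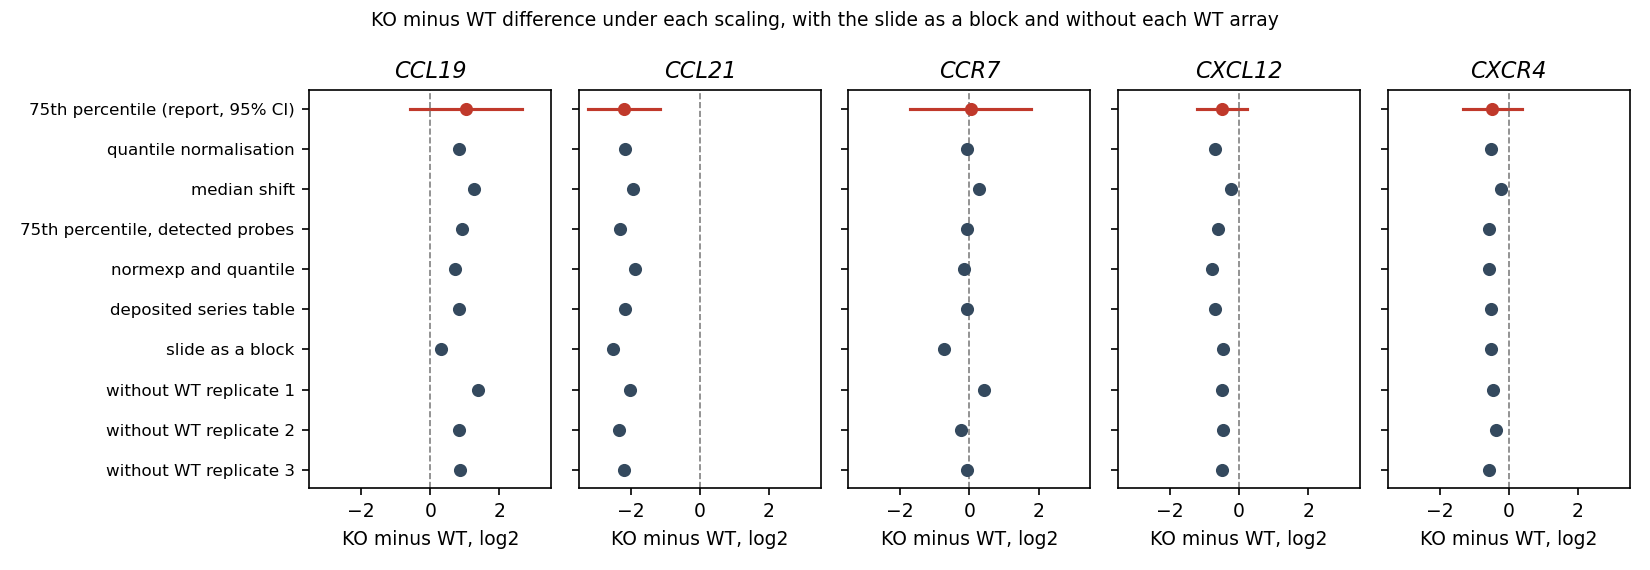
KO minus WT on the log2 scale (horizontal axis) for each gene under 6 scalings, with the slide as a block and without each WT array; the red point and bar are the value of the report with its 95% interval, and the dashed line marks 0. CCL21 stays between -2.52 and -1.88 in every row, CCL19 ranges from 0.30 to 1.39, and CCR7 crosses 0.

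A ratio of 2 genes on the same array does not change when that array is rescaled. Its own size reflects the probes as well as the transcripts, so only its change between arrays is described, and a change shows only that the genes differed unequally. The log2 ratio of CCL19 to CCL21 was 1.90, 1.45 and 1.18 in WT and 4.72 in KO. KO stood above all WT arrays, by 3.21 over the WT mean of 1.51 ± 0.37 (SD, n = 3) and by 2.82 over WT 1 on the same slide. The shift from the WT mean amounts to 9.26-fold.

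The log2 ratio of CCL19 to its receptor CCR7 was 1.43, 1.68 and 1.31 in WT and 2.47 in KO. The WT arrays of both slides agreed closely here, with an SD of 0.19, although each gene alone differed between slides by over 2-fold. KO was above all of them, by 0.99 over the WT mean and by 1.03 over WT 1. So relative to CCR7, CCL19 was higher in KO within slide 1 as well as across slides.

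The log2 ratio of CCL21 to CCR7 was -0.47, 0.23 and 0.13 in WT and -2.25 in KO. KO was below all WT arrays, by -2.22 from the WT mean of -0.04 ± 0.38 (SD, n = 3) and by -1.79 from WT 1. The ratio of CXCL12 to CXCR4, in contrast, was 3.08, 2.99 and 3.31 in WT and 3.11 in KO. KO lay inside the WT range, with a difference of -0.02 from the WT mean of 3.13 ± 0.17 (SD, n = 3). With 1 array against 3, an exact permutation test cannot give a p below 0.25, so no p is given for these ratios.

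**Figure D3:**
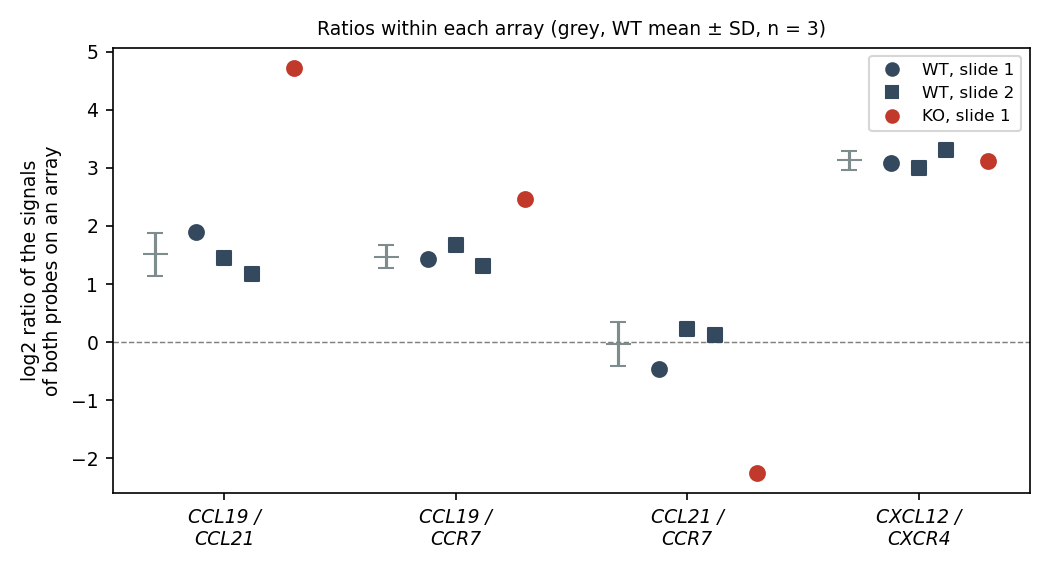
Log2 ratio of the signals of both named probes on the same array (vertical axis) for each pair; circles are slide 1, squares are slide 2, KO is red, and the grey mark with its bar is the WT mean and SD (n = 3). The CCL19 to CCL21 ratio is 4.72 on KO against 1.18 to 1.90 on WT, while the CXCL12 to CXCR4 ratio of 3.11 on KO falls among the WT arrays.

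Genes whose pattern over the 4 arrays came nearest to each member were sought among 2431 named genes that were well above background on all arrays. The measure was the root mean square of the log2 differences after the mean of each gene was taken out, and with 4 arrays many genes come close. Nearest to CCL21 was TLR10, a Toll-like receptor, at 0.07, with 0.61, 0.02 and 0.40 in WT and -1.74 in KO. FAM209B followed at 0.08 and SLC5A10, a sugar transporter, at 0.14. Nearest to CCL19 were ESD (esterase D) at 0.04, NEU1 (a lysosomal neuraminidase) at 0.05 and SOCS4 at 0.06, all of them higher on both arrays of slide 1.

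Near to CCR7 were SLC39A7, a zinc transporter, at 0.10 and LRRC59 at 0.14. Nearest to CXCL12 were NUDT2 at 0.01, the ribosomal protein gene RPL7 at 0.03 and IVNS1ABP at 0.03, each of them nearly level in WT and lower on KO. Near to CXCR4 were PRKAA2, a subunit of AMP-activated kinase, at 0.06 and FXYD2 at 0.06. No gene was among the 3 nearest of more than 1 member, and genes beyond these were not compared between members.

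Other genes of lymphocyte homing were read from 7 lists, which held 118 genes, and 51 could be named and tested. KO was above the WT mean for 37 and below it for 14, where 54.7% of all named genes were above and 45.3% below, with a median difference of 0.59, against 0.08 over all 2742 named genes tested and -0.11 over all probes. KO was above all WT arrays and at least 2-fold above their mean for 17 (33.3%), where 13.5% of all named genes were, and below by the same rule for 4 (7.84%), where 9.19% were. ACKR2 and SELE, both among the 17, were well above background on KO but not on every WT array, so no fold is given for them. Of the 2 SELE probes, 1 was also well above background on WT 3. The other SELE probe and that of ACKR2 were so on no WT array. None of the list genes passed limma after adjustment, a count of 0, and 17 of 51 had an unadjusted limma p under 0.05, where 14.6% of all named genes did. Within slide 1 the median of these genes was 0.51. CXCL13 and CXCR5, which guide B cells into follicles, and the lymphotoxin genes LTB and LTBR were not analysed here.

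Of 11 other homeostatic chemokines 6 were tested, and 3 were higher in KO and 3 were lower. CXCL16, which is both a chemokine and a scavenger receptor and draws cells with CXCR6, differed most, with 4.49, 4.13 and 3.93 in WT and 6.42 in KO. Its difference was 2.23 (SE 0.35), with an adjusted limma p of 0.315, and it was 1.92 within slide 1. CCL20, the ligand of CCR6, was dim, with a difference of 1.37 (limma, adjusted p = 0.421).

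Other chemokine receptors, 8 of 16 tested, diverged from one another. KO was above all WT arrays for 4 of 8 and below all of them for 2, each at least 2-fold from the WT mean. CCR1, a receptor of myeloid cells, differed by 1.68, or 1.09 within slide 1. CCR2 and CXCR6, named after their values had been seen, differed by 1.35 and 1.02, but by only 0.22 and 0.11 within slide 1. CCR9, which guides lymphocytes to gut and thymus, was -1.81, -2.91 and -2.99 on the WT arrays and -4.81 on KO, which differed by -2.23, or -2.99 within slide 1. CCR10, a receptor for homing to skin and mucosa, differed by -1.93, or -1.99 within slide 1. The adjusted limma p lay between 0.371 and 0.425 for CCR1, CCR9 and CCR10.

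Of the atypical chemokine receptors and DPP4, 4 of 6 were higher and 2 lower in KO. The first 3 below were named, outside the rule of size, because they take up or cleave the member chemokines. ACKR4, an atypical receptor that takes up CCL19 and CCL21, was -2.35, -2.24 and -2.30 in WT and -1.37 in KO. Its WT arrays were level and KO was above all of them, with a difference of 0.92 (limma, adjusted p = 0.416) and of 0.98 within slide 1. ACKR3, the atypical receptor of CXCL12, had a difference of -0.02 and KO within the WT range. DPP4, a peptidase that trims CXCL12, differed by 0.61, with KO above all WT arrays (limma, adjusted p = 0.515). ACKR1, an atypical receptor of venules and erythroid cells for other chemokines, differed by -1.88 over all WT arrays but by -0.02 within slide 1.

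Of 19 integrins, selectins and their ligands 14 were tested, and 11 were higher and 3 lower in KO. ITGAL, the alpha chain of the integrin LFA-1, differed by 2.02, its ligand ICAM2 by 1.84, and the selectin ligand SELPLG by 1.74. Within slide 1 these differences were 1.48, 1.29 and 1.02. MADCAM1 and VCAM1, ligands of integrins that carry the alpha 4 chain, were named after their values had been seen. Their differences were 0.42 and 0.38, with adjusted limma p of 0.585 and 0.636.

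Some products of the lymphotoxin and tumour necrosis factor list maintain the stroma that makes these chemokines. Of its 17 genes 5 were tested, and all 5 were higher in KO, where 54.7% of all named genes were higher. TNFSF13B, the B cell survival factor BAFF, differed by 2.96, TNF by 1.82 and its receptor TNFRSF1B by 1.59, and within slide 1 by 1.85, 1.40 and 1.14. LTA differed by 0.14, with KO at -0.44 above WT values of -0.77 to -0.46, and its second probe differed by -0.27. Of 38 signalling genes downstream of chemokine receptors 9 were tested, and 0 of them had an unadjusted limma p under 0.05. All 9 were higher in KO, where 54.7% of all named genes were, with a median difference of 0.59. Within slide 1 that median was 0.38, and GNAI3 and PIK3CG, named after their values had been seen, were lower there, at -0.12 and -0.31. Among these genes JAK2, at 1.21, was the only 1 with KO above all WT arrays and at least 2-fold from their mean. Of 11 genes of lymphocyte egress 3 were tested, and S1PR5, KLF2 and CD69, named after their values had been seen, as LTA was, differed by -0.94, 0.16 and -0.32.

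**Figure D4:**
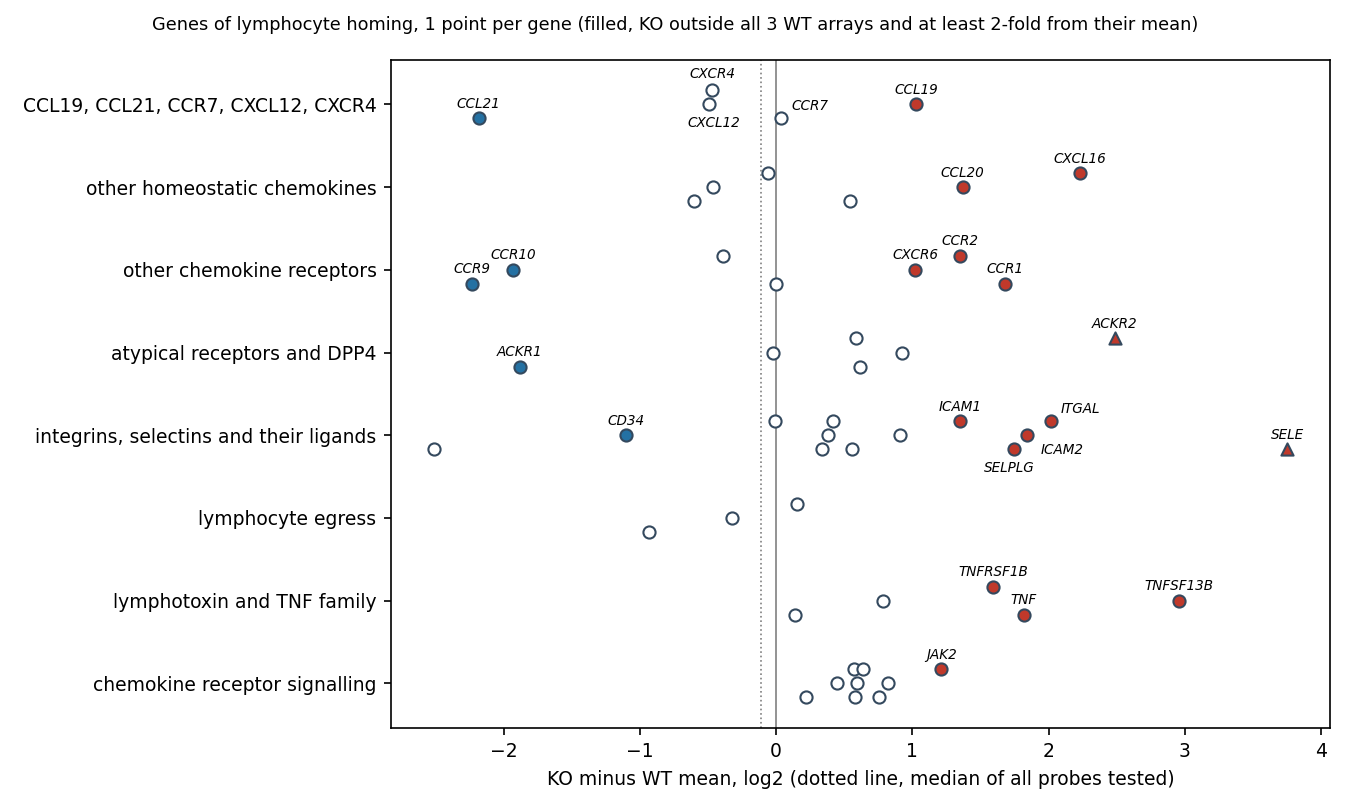
KO minus the WT mean on the log2 scale (horizontal axis) for tested genes of the members and of 7 homing lists (rows), without the genes not reported here; filled points have KO outside all 3 WT arrays and at least 2-fold from their mean, red above and blue below, and the dotted line is the median of all probes at -0.11. Triangles (ACKR2 and SELE) were not well above background on every array, so their positions are not measured folds. Besides the members, 4 genes are filled below, and CXCL16 and TNFSF13B lie far to the right at 2.23 and 2.96.

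In bulk spleen RNA, fewer cells of a type and less RNA per cell cannot be told apart, so markers of the cells that make or carry these genes were set beside them. The summed level of a list is the sum of its gene signals in units of the 75th percentile. Stromal genes (COL1A2, DCN, ACTA2 and others, 7 of 16 tested) summed to between 194.7 and 298 on WT and to 260.8 on KO, with 3 higher and 4 lower and a median difference of -0.00. ACTA2 and DES, at 6.68 and 6.70 on KO, dominated this sum, so it shows little of the other stromal genes. DCN, a proteoglycan of fibroblasts, differed by 1.31. Endothelial genes (5 of 14 tested) were lower in KO for 5 of 5, all below every WT array, where 45.3% of all named genes were lower. They summed to 11.8, 20.8 and 40.0 in WT and to 7.20 in KO, so that WT 1 was nearest to KO.

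Of the endothelial genes VWF differed by -2.76, CLDN5 by -1.09, ENG (endoglin) by -1.07 and PROX1, a transcription factor of lymphatic endothelium, by -0.99, and within slide 1 by -1.61, -0.87, -0.11 and -0.41. Thus endothelial genes were lower in the same array as CCL21 and CXCL12. The stromal sum, which ACTA2 and DES dominated, lay within the WT range. The part of either cell type in the CCL21 difference was not tested.

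Of the B cell list, 5 genes of 16 were tested, and 3 were lower and 2 higher in KO. MS4A1 (CD20) differed by -4.92 and CD79A by -4.12, and they stayed well above background on the KO array. The higher genes were CD72, another B cell surface protein, at 1.49 (0.68 within slide 1) and CD40, which macrophages and dendritic cells also express, at 1.66. CD40 dominated the summed level of the list, which was 30.4 to 39.1 on WT and 96.2 on KO. T cell genes (10 of 18 tested) summed to between 25.5 and 76.4 on WT and to 39.1 on KO, with 6 higher and 4 lower. CD247, at 5.27, was the largest part of the highest sum, that of WT 2.

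Dendritic cell genes were higher in KO for 5 of 5 tested of 15, where 54.7% of all named genes were higher, and summed to between 18.5 and 31.7 on WT and to 70.2 on KO. FSCN1, known from mature dendritic cells, differed by 1.45 and the costimulatory gene CD86 by 1.31. FSCN1, at 5.88 on KO, dominated the summed level of the list. CD209, among the 5, was dim, at -4.75 on KO, and was not well above background on every array. Macrophage genes were higher for 11 of 11 tested of 15, where 54.7% of all named genes were higher. Their sum was 578.1 to 793.5 on WT and 1378 on KO. C1QB and C1QA, at 8.96 and 7.85 on KO, dominated this sum. They differed by 0.71 and 0.99, or by 0.38 and 0.40 within slide 1. KO was above all WT arrays for 9 of the 11 macrophage genes. It lay within the WT range for VSIG4 (4.64, against -0.88 to 7.21) and for SIGLEC1, which differed by -0.03 within slide 1. CCR7 and CXCR4 thus lay within or near their WT ranges in an array where MS4A1 and CD79A were lower, CD72 and CD40 higher and the tested dendritic cell genes higher, and the part of each in these values was not tested.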

How the data were processed

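The authors hybridised pig spleen RNA (3 WT samples and 1 KO sample) to a porcine oligonucleotide array and deposited the spot intensity values of Agilent Feature Extraction 11.0.1.1. The file headers list 1 channel, whereas the methods describe a dye pair, so values were treated as one-colour. The intensity used was the processed signal, background-corrected by that software. A series table of log2 values, deposited by the authors for 27421 probes, served as an alternative, and how it was normalised is not given in the sources used here. Groups came from the sample titles.

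Spots marked as outliers were left out, which removed 28 probes. Signals were taken to log2, the 75th percentile over the 43803 spots other than controls was subtracted per array, and replicate spots were averaged per probe. A probe was tested if any array had it well above background (33464 of 43575). The WT and KO arrays were compared over all probes by a two-sided moderated test (lmFit, then eBayes, of limma 3.58.1 under R 4.3.3), with Benjamini-Hochberg adjustment and a threshold of adjusted p 0.05 and a difference of 2-fold. There were 2 residual and 1.93 prior degrees of freedom, and the KO array is assumed to vary like WT. The script of the fit was tested on simulated data. Tables were read with Python 3.11.15, pandas 2.3.3 and numpy 2.4.6.

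Transcript identifiers were matched without versions to RefSeq transcripts of Sscrofa11.1, used for names and for which genes are neighbours (6686 of 43603 probes). For a gene with several probes the brightest stood for it. Each list names at most 4 genes, those of largest difference with KO outside the WT range by 2-fold and well above background on all arrays, besides markers read beside a member. Exceptions are said in the text, and some genes that the rule names are not reported here. The members and lists were chosen with earlier results of these data known, so counts over them are descriptions. The number of arrays limits precision.

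Alternatives were 4 other scalings, the deposited table, 2 filters, eBayes with a trend, the methods' t-test, the slide as a block, 2 rules for genes with several probes, and leaving out each WT array. Raw spot signal for normexp was the median of each spot, since the files used hold no mean.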

Additional observations from a re-analysis of the deposited data

How the results depend on the processing

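Over 15 alternatives, CCL19 stayed positive (0.30 to 1.39) and CCL21 (-2.52 to -1.88), CXCL12 (-0.79 to -0.24) and CXCR4 (-0.58 to -0.22) stayed negative. No alternative put a member past the threshold after adjustment. Without each WT array in turn the ranges were 0.84 to 1.39 for CCL19, -2.34 to -2.02 for CCL21, -0.25 to 0.42 for CCR7, -0.50 to -0.47 for CXCL12 and -0.58 to -0.38 for CXCR4. CCR7 turned negative under quantile normalisation (-0.0651), a 75th percentile restricted to probes above background on every array (-0.0776), normexp (-0.15), the deposited table (-0.0725) and the slide as a block (-0.73), and the cause was not tested.

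The methods' t-test, without any adjustment and with a 2-fold difference, passed CCL21 (-2.18), hence 1 of 5 members. It passed 4 of 51 other homing genes and 1333 of 33464 probes. CXCL12 also had a p below 0.05 in this t-test, but its difference (-0.49) was short of 2-fold. After Benjamini-Hochberg adjustment the t-test passed 0, and the Bonferroni correction that the methods name, which is stricter, can pass none either. Normexp passed 4 probes and eBayes with a trend 6, none of them a member. The median shift left 2 other homing genes below all WT arrays and at least 2-fold from their mean, in place of 4. Probes above by the same rule numbered 3786 under the median shift and 1381 under normexp, and 2332 to 3237 without a WT array, against 2459. Probes below numbered 2517 under quantile normalisation, 824 under normexp, 1491 in the deposited table, 2011 when a probe had to be above background on every array, 2324 with the slide as a block and 3404 to 5936 without a WT array, the highest without WT 1, against 3874. That filter and the deposited table hold fewer probes, and the other causes were not tested. The median of all probes was -0.11, and it was 0.14 under the median shift and -0.22 under the percentile over probes above background. No paired analysis was possible because the labels pair the 1 KO array with no WT array, and the slide shared with WT 1 was used as a block instead. Member signals were all well above background, so signal does not limit them.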
